A study of Mus musculus with 2 samples.

Results

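The genes described here encode CTCF, the cohesin complex and the proteins that load and release cohesin: Ctcf, Smc1a, Smc3, Rad21, Stag1, Stag2, Nipbl, Mau2, Wapl and Pds5b. They were chosen by name, and all 10 had a row in the table of 48550 rows. All 10 also passed the minimum of 20 allele-assigned reads in each library, as did 15509 genes in all. The cells, F121-6, are female hybrid mouse embryonic stem (ES) cells, with 1 set of chromosomes of the 129 strain and 1 of *Mus musculus castaneus* (cas). They were grown with serum and LIF on mouse embryonic fibroblasts (MEFs) inactivated with mitomycin C, and total nuclear RNA was sequenced, so that unspliced transcripts were measured with mature ones. Both samples, library 1 and library 2, belong to this 1 group, and each read was assigned to an allele, so the comparison is 129 against cas within a library. Separate cultures are not named for them, so the p-values may cover technical spread only. In the main limma fit, the variance of a gene was estimated mostly from other genes of similar level (prior degrees of freedom 88.7). A p-value there says little about how far the 2 libraries differed for its own gene.

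CTCF is a zinc finger protein that binds DNA and marks the anchors of many chromatin loops. Cohesin is a ring built from SMC1A, SMC3 and RAD21 with a STAG1 or STAG2 subunit, which holds sister chromatids together and extrudes loops until it meets CTCF. NIPBL and MAU2 load the ring and support extrusion, and WAPL with PDS5 proteins removes it from chromatin. Allelic differences in genome organization are among the subjects of the study, and these genes encode the machinery, which acts on both sets of chromosomes.

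The promoters of 3 of these genes are shown first because their allele ratios mark the 2 ends of the family and CTCF itself. RefSeq promoter sequences on GRCm38.p6, the build also called mm10, matched 7 of the 10 genes; Rad21, Stag2 and Nipbl had no entry. Each sequence holds the 250 bases before the start in RefSeq, 5′ to 3′ on the gene's own strand. Capitals mark GC boxes (GGGCGG, bound by SP factors) and CCAAT boxes (bound by NF-Y), each searched on both strands.
Ctcf, chr8:105636288-105636537, plus strand: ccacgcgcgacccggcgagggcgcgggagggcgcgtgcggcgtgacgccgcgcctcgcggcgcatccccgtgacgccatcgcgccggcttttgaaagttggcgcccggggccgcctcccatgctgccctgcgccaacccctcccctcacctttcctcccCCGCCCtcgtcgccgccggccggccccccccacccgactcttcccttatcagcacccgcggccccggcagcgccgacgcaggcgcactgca
Stag1, chr9:100643198-100643447, plus strand: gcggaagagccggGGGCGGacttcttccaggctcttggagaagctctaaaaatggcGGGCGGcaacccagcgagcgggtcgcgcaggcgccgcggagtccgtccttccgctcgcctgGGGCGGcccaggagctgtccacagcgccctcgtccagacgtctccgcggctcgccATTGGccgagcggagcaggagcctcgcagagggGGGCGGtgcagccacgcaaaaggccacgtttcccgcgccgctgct
Wapl, chr14:34673678-34673927, plus strand: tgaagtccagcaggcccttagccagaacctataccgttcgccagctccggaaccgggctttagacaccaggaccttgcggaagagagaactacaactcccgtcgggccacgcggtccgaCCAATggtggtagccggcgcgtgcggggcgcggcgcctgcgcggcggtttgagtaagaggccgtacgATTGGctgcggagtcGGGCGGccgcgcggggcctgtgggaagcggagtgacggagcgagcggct

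All 3 are CpG-rich. The Ctcf promoter held 40 CpG dinucleotides, Stag1 31 and Wapl 32, against a median of 6 over 32851 RefSeq promoters of the same length. Across the 7 members with a promoter at the start the table uses, the count ran from 16 in Smc1a to 40 in Ctcf. A GC box was found in all 7, against 32.7% of all promoters, with 4 copies in Stag1 and 1 each in Ctcf and Wapl. GGGCGG itself holds a CpG, and that share was not matched for CpG content. A CCAAT box was found in 4 of the 7, against 33.8% of all promoters, with 2 copies in Wapl, 1 in Stag1 and 0 in Ctcf. The letters TATAAA (12.4% of all promoters) and CCGGAAG for ETS factors (6.91%), and the longer motifs searched for NRF1 (0.782%), YY1 (0.347%) and CTCF (0.0335%), were in 0 of the 7 windows, also on both strands. The Stag1 window lies inside the annotated gene, since GENCODE also lists a start further upstream. These matches describe the reference sequence, and the alleles of the hybrid were not compared by sequence.

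Allele-assigned reads numbered 28523744 in library 1, with 53.6% from 129, and 31402765 in library 2, with 54.2% from 129. The typical tested gene gave 55.3% of its reads from 129 in library 1 and 56.0% in library 2, so ratios are given relative to that gene: log2(129/cas) of counts scaled to library size (CPM) plus 0.1, after scaling by trimmed means of M values (TMM), where a value above 0 is a 129 share above the typical one. Unless another scaling is named, higher from cas or from 129 means relative to that gene, not in plain reads. Intervals of shares are exact 95% binomial (Clopper-Pearson) intervals and cover counting error only. Of the 12 ES cell markers looked up, Sox2 was listed at 0 and 11 were tested. With TMM, 5 were higher from cas and 1 from 129, with a median log2 ratio of -0.17. Over all tested genes the share called was 21.8% in each direction. With 1 shared library size for both alleles, 0 of these markers were higher from cas and 4 from 129 (median 0.15). Over all tested genes the shares were then 9.62% and 41.9%. With the deposited column totals, 3 were called in each direction (median -0.07), against 16.6% from cas and 27.0% from 129. Without pairing alleles by library, 1 was called in each direction, against 11.4% from cas and 13.8% from 129. Markers of fibroblasts, the feeder cells, were present as well. With TMM, 13 of 17 tested ones were higher from 129 and 0 higher from cas, against the same 21.8%. Their summed level over 20 listed genes was 1979 CPM in library 1 and 1999 in library 2, with 65.0% and 68.6% of it from 129, while Lum and S100a4 were at 0. Fn1 alone gave 1480 and 1383 CPM of that sum, at 57.3% and 59.3% from 129, and the other 19 together gave 499 and 616 CPM, at 88.0% and 89.3% from 129. The strain of the feeders is not in the labels, and the part of their RNA in the ratios below was not tested.

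Ctcf (ENSMUSG00000005698.15, chromosome 8, 105636568 to 105682922) gave fewer of its reads from 129 than the typical gene. It had 1932 (129) and 1723 (cas) reads in library 1 against 1595 and 1614 in library 2. The 129 share was 52.9% (interval 51.2 to 54.5) in library 1 and 49.7% (48.0 to 51.4) in library 2. Both lay under the typical share, and the intervals overlap only from 51.2 to 51.4. A difference between the libraries was not tested. For Ctcf the log2 ratio was -0.25 (SE 0.08), a 1.19-fold shift to cas relative to the typical gene, with an adjusted p of 0.0064 in limma. It was -0.14 in library 1 and -0.37 in library 2, the larger part of the value coming from library 2. The total level of Ctcf was 128 CPM in library 1 and 102 CPM in library 2.

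In the core ring, Rad21 was called higher from cas, and the SMC subunits had ratios of the same sign that did not pass the test. Rad21 (ENSMUSG00000022314.10, chromosome 15, 51962240 to 51991747) encodes the kleisin that closes the ring. It had 4258 (129) and 3891 (cas) reads in library 1 against 4681 and 4406 in library 2. Its 129 share was 52.3% (51.2 to 53.3) and 51.5% (50.5 to 52.5), below the typical share in both libraries. The log2 ratio was -0.22 (SE 0.06, adjusted p = 6.6e-04 in limma), a 1.16-fold shift to cas relative to the typical gene. In plain reads, 129 exceeded cas in both libraries.

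Smc3 (ENSMUSG00000024974.10, chromosome 19, 53600398 to 53645833), an ATPase arm of the ring, had 1730 (129) and 1507 (cas) reads in library 1 against 1786 and 1533 in library 2. The shares of 53.4% (51.7 to 55.2) and 53.8% (52.1 to 55.5) had intervals that overlap each other and end just below the typical share. The log2 ratio was -0.12 (SE 0.08, adjusted p = 0.24 in limma), with a 95% interval of -0.28 to 0.04. Smc1a (ENSMUSG00000041133.11, chromosome X, 152016428 to 152062694), the other ATPase arm, had 2722 (129) and 2365 (cas) reads in library 1 against 2529 and 2244 in library 2. The shares were 53.5% (52.1 to 54.9) and 53.0% (51.6 to 54.4), each interval ending below the typical share. The log2 ratio was -0.14 (SE 0.07, adjusted p = 0.091 in limma), and its unadjusted p was 0.044.

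**Figure D1:**
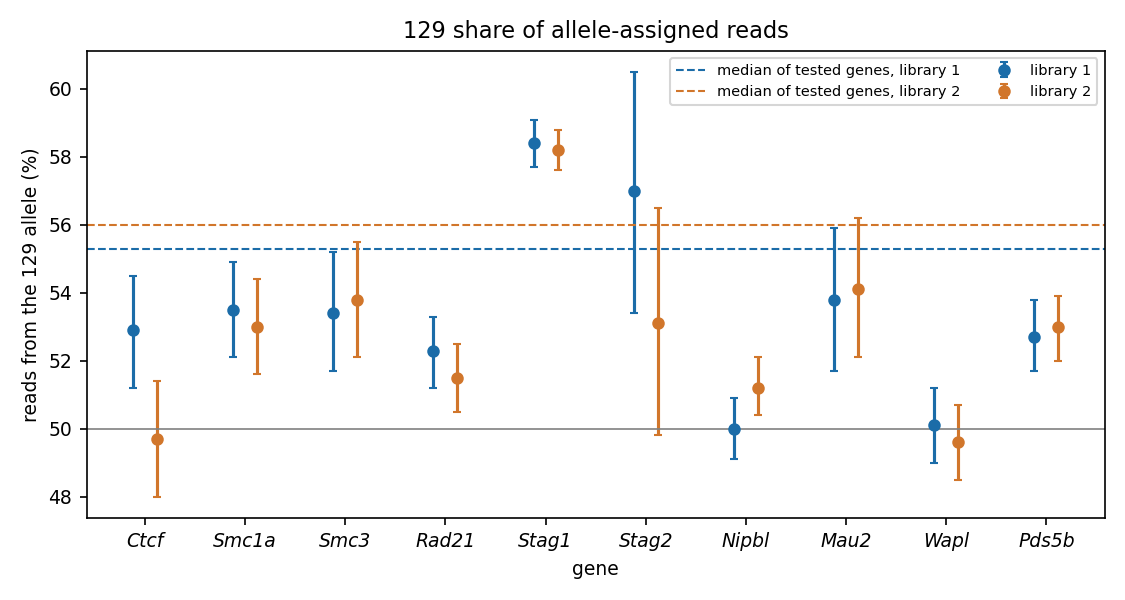
Share of allele-assigned reads from the 129 allele (y axis, percent) for each gene (x axis) in library 1 and library 2, with exact 95% binomial intervals. The dashed lines are the medians of all tested genes, 55.3% and 56.0%, and the grey line is 50%. Stag1 lies above both medians in both libraries, at 58.4% and 58.2%, and Wapl and Nipbl lie near 50% in both, with Ctcf there in library 2 only.

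The STAG subunits, which dock on the ring and contact CTCF, did not share a pattern of calls. Stag1 (ENSMUSG00000037286.15, chromosome 9, 100597798 to 100959375) had the most reads of the family, with 11993 (129) and 8546 (cas) in library 1 against 13817 and 9917 in library 2. Its 129 share of 58.4% (57.7 to 59.1) and 58.2% (57.6 to 58.8) was above the typical share and above 9 of 9 other members in each library. Relative to the typical gene, log2(129/cas) was 0.16 (SE 0.04, adjusted p = 7.0e-04 in limma), a 1.11-fold excess of 129, and this was the 1 member called higher from 129.

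Stag2 (ENSMUSG00000025862.14, chromosome X, 42149317 to 42277185) is its paralogue. It had the fewest reads, 441 (129) and 333 (cas) in library 1 against 465 and 410 in library 2. The share was 57.0% (53.4 to 60.5) in library 1 and 53.1% (49.8 to 56.5) in library 2, on either side of the typical share. The log2 ratio was -0.03 (SE 0.15, adjusted p = 0.88 in limma), with a 95% interval of -0.33 to 0.26 that also holds the value of Stag1. A difference between Stag1 and Stag2 was not tested.

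The loader subunits are partners in 1 protein complex. Nipbl (ENSMUSG00000022141.7, chromosome 15, 8290617 to 8444463) had 6217 (129) and 6209 (cas) reads in library 1 against 7352 and 6998 in library 2. Its 129 share was 50.0% (49.1 to 50.9) and 51.2% (50.4 to 52.1). The log2 ratio of -0.29 (SE 0.05, adjusted p = 1.6e-07 in limma) is a 1.22-fold shift to cas relative to the typical gene. In plain reads, the alleles were nearly equal in library 1 and 129 exceeded cas in library 2. The ratio was nearly the same in library 1 (-0.30) and library 2 (-0.28). Mau2 (ENSMUSG00000031858.16, chromosome 8, 70016123 to 70042734) had 1206 (129) and 1036 (cas) reads in library 1 against 1277 and 1082 in library 2. The shares of 53.8% (51.7 to 55.9) and 54.1% (52.1 to 56.2) had intervals that hold the typical share. The log2 ratio was -0.10 (SE 0.09, adjusted p = 0.42 in limma), with a 95% interval of -0.28 to 0.09.

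Both release factors were called higher from cas. Wapl (ENSMUSG00000041408.18, chromosome 14, 34673928 to 34747983), which opens the ring, had the ratio farthest from 0 in the family. It had 3992 (129) and 3983 (cas) reads in library 1 against 4038 and 4109 in library 2. The reads were thus close to equal, with shares of 50.1% (49.0 to 51.2) and 49.6% (48.5 to 50.7), where the typical gene had an excess of 129. For Wapl the log2 ratio was -0.34 (SE 0.06, adjusted p = 3.6e-07 in limma), a 1.26-fold shift to cas relative to the typical gene. Pds5b (ENSMUSG00000034021.15, chromosome 5, 150673739 to 150810690), a HEAT-repeat regulator that binds WAPL and the ring, had 4911 (129) and 4399 (cas) reads in library 1 against 5146 and 4572 in library 2. The share was 52.7% (51.7 to 53.8) and 53.0% (52.0 to 53.9), and the log2 ratio -0.16 (SE 0.05, adjusted p = 0.0091 in limma).

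Over the family, 6 of 10 genes were called, against 43.7% of all tested genes. Genes with many reads are called more often: of 5825 genes with at least as many reads as Stag2, 58.3% were called. Their median of 4948 reads over both libraries lay below the 12991 of the members, so this set is not matched to them in depth. By direction, 5 of 10 were higher from cas (Ctcf, Rad21, Nipbl, Wapl and Pds5b) and 1 of 10 from 129 (Stag1), against 21.8% of all tested genes in each direction. Among those 5825 genes, 33.9% were higher from cas and 24.5% from 129. The differences were small. The median size of the log2 ratio was 0.16 in the family (median SE 0.06), 0.26 over those 5825 genes (0.09) and 0.40 over all tested genes (0.21). All tested genes had a median of 844 reads, and 56.2% of them had a larger ratio in size than Wapl. The median log2 ratio was -0.15 in the family, -0.12 in library 1 and -0.18 in library 2, against -0.06 over the 5825 genes. Each SE rests on a spread pooled over genes of like abundance, so that it does not show how far the libraries of 1 gene differed. Without the pairing of alleles by library (no replicate block), 0 of the 10 were called, against 25.2% of all tested genes, with 13.8% higher from 129 and 11.4% from cas, and the smallest adjusted p among them was 0.052, for Nipbl. At an unadjusted p under 0.05, 2 of the 10 (Nipbl and Wapl) passed in that fit. With log2 of the deposited RPKM plus 0.1, 0 of the 10 were called and 1 (Stag1) passed unadjusted, against calls for 17.8% of all tested genes, 11.5% higher from 129 and 6.33% from cas.

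**Figure D2:**
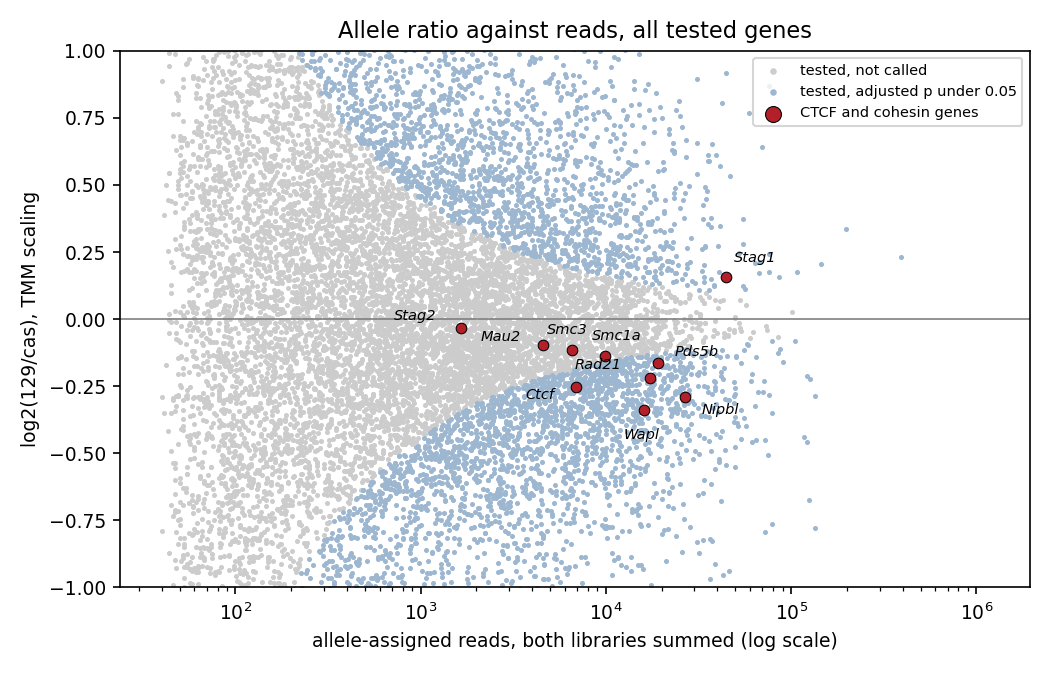
Log2(129/cas) after TMM scaling (y axis) against the reads of both alleles and libraries summed (x axis, log scale) for all 15509 tested genes, each a point. Grey points were not called, blue ones had an adjusted p under 0.05, and red ones are the 10 members. The y axis ends at 1 in size, which leaves 3160 genes outside. The members lie between -0.34 and 0.16, with Stag2, which had the fewest reads, well inside the grey points.

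The 6 calls were kept with a pseudocount of 0.5 CPM (44.7% of all tested genes called) or 1 CPM (43.7%), without a read minimum (28.0%), with a minimum of 100 reads per library (48.3%) and with median-of-ratios size factors (44.0%). Exact binomial tests, 1 per library, called 7 of the 10, against 45.7%, the added gene being Smc1a.

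The direction of 8 of the 10 ratios depended on the point of reference. In plain reads, 129 exceeded cas in 18 of 20 pairs of gene and library, the exceptions being Ctcf and Wapl in library 2. With 1 shared library size for both alleles, which keeps this excess, the median of all tested genes moved from 0 to 0.32 and that of the members from -0.15 to 0.18. On that scale 5 of 10 were called higher from 129, against 41.9% of all tested genes, and 0 of 10 higher from cas, against 9.62%. Those 5 were Stag1 (0.48, adjusted p = 8.2e-26), Mau2 (0.23), Smc3 (0.21), Smc1a (0.19) and Pds5b (0.16), the last of which was higher from cas under TMM. Ctcf had 0.07, Rad21 0.11, Nipbl 0.04 and Wapl -0.01, all without a call. With the deposited column totals, which moved the median of all genes to 0.10, 3 of 10 were called, against 43.6% of all tested genes: Stag1 higher from 129 (0.26), and Nipbl (-0.19) and Wapl (-0.24) higher from cas, against 27.0% and 16.6% of all tested genes in those directions. Stag1 was the member called in the same direction under all 4 scalings (TMM, median of ratios, column totals and shared size). Across all tested genes, the share of calls higher from 129 was 50.0% with TMM, 61.9% with column totals and 81.3% with 1 shared size.

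**Figure D3:**
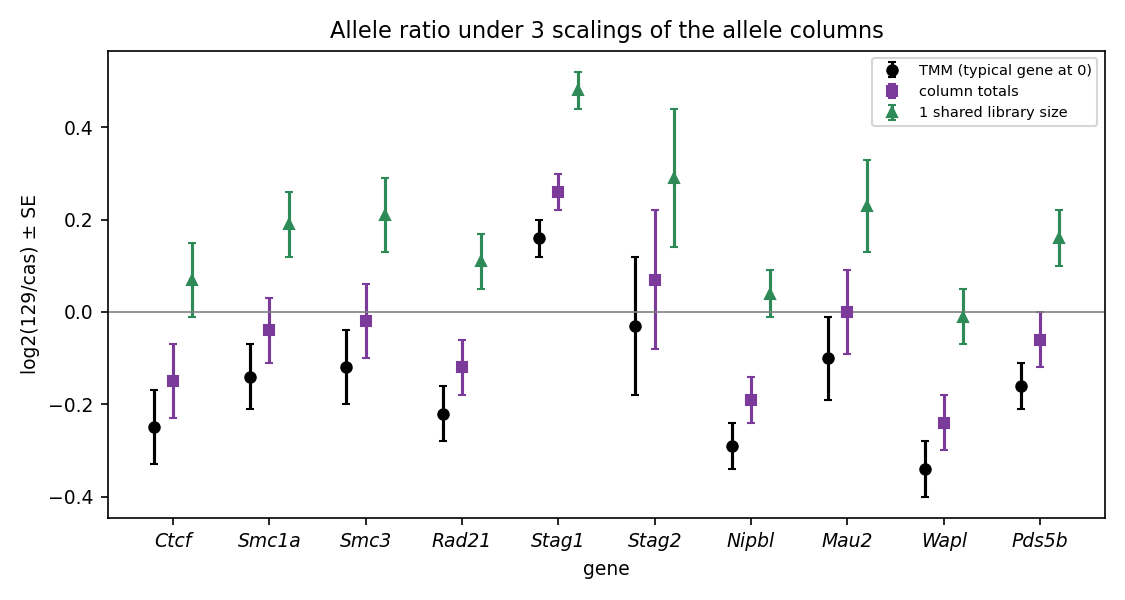
Log2(129/cas) with its SE (y axis) for each gene (x axis) under 3 scalings: TMM, the deposited column totals and 1 shared library size. Each gene moves upward by nearly the same amount from TMM to the shared size, and the order of the genes is kept, with Stag1 at the top (0.16, 0.26 and 0.48) and Wapl at the bottom (-0.34, -0.24 and -0.01).

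Smc1a and Stag2 are on the X chromosome. The 553 other tested X-linked genes had a median log2 ratio of -0.06, and 38.9% of them were called. Set against that median in place of the typical gene, Smc1a had a log2 ratio of -0.08 (adjusted p = 0.38 in limma) and Stag2 one of 0.03 (adjusted p = 0.89), and neither passed the test. Xist, the RNA that coats an inactive X, was listed at 0 in both libraries, but it lies wholly inside its antisense partner Tsix, which had 283 and 457 reads, so its 0 says nothing of its level.

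Overlap with other annotated genes was small for the members. The largest overlap with a gene that had over 5 reads in a library was in Ctcf, where Agrp, on the opposite strand, shares 826 bp (1.8% of the Ctcf span) and had 194 reads in library 1 and 254 in library 2. Every other gene overlapping a member had at most 5 reads in each library or no row. Near-identical copies elsewhere in the genome were not examined. The 10 tested genes nearest to each member, 5 on each side, had medians from -0.27 around Mau2 to 0.13 around Pds5b. These sets are not alike in distance, covering 321 kb around Mau2 but 9316 kb around Stag2. Single neighbours spread widely, from -4.18 to 3.83 around Pds5b. Around Rad21, Nipbl and Smc3, 4 of 10 neighbours each were higher from cas, around Mau2 and Pds5b 3, around Stag1 and Stag2 2, and around Ctcf, Smc1a and Wapl 1, against 21.8% of all tested genes. Higher from 129 were 2 of 10 around Ctcf, Rad21 and Nipbl, 1 around Smc3, Stag1, Stag2, Wapl and Pds5b, and 0 around Smc1a and Mau2, against 21.8%.

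Other genes of cohesin and loop biology gave calls in both directions (21 of 27 listed genes tested). Of 13 tested regulators of cohesin, 6 were higher from cas and 0 from 129 under TMM, against 21.8% of all tested genes in each direction. With the deposited column totals 4 were higher from cas and 3 from 129, against 16.6% and 27.0%. With 1 shared library size 1 was higher from cas and 7 from 129, against 9.62% and 41.9%. Without the replicate block 2 (Pttg1 and Esco1) were higher from cas and 0 from 129, against 11.4% and 13.8%. Pttg1, securin, had the largest ratio among them at -1.40 (SE 0.23, adjusted p = 1.3e-07 in limma). It had 118 reads from 129 against 254 from cas in library 1 and 114 against 239 in library 2, and remained higher from cas under each scaling (-1.08 with the shared size). The acetyltransferase genes Esco1 and Esco2, whose products lock the ring on DNA, had -0.47 and -0.41, both without a call under the shared size (-0.14 and -0.08). The mitotic kinase gene Plk1 had -0.61, from -0.38 in library 1 and -0.84 in library 2, and lost its call with the shared size (-0.28) and without the block (adjusted p = 0.17 in limma). Pds5a, the paralogue of Pds5b, had -0.22, which lost its call with column totals (-0.12) and without the block and turned to 0.11, not called, with the shared size. Nsmce2, a SUMO ligase of the related SMC5/6 complex, had -0.12 and turned to 0.20 with a call under the shared size. The other 7 were not called, among them Hdac8 (0.10), which deacetylates SMC3, and Ppp2r1a (0.20), a phosphatase scaffold. Both were called higher from 129 with column totals (0.20 and 0.30) and with the shared size (0.43 and 0.53).

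Of the germline forms, Smc1b and Stag3, meiotic counterparts of Smc1a and Stag1, were called higher from 129 under each of the 4 scalings. Smc1b had 1405 reads from 129 against 528 from cas in library 1 and 1865 against 586 in library 2 (log2 ratio 1.21, SE 0.10, adjusted p = 7.6e-19 in limma). Stag3 had 615 against 102 and 661 against 68 (2.59, SE 0.20, adjusted p = 3.9e-21). Both ratios were far larger in size than that of any of the 10 members. Rec8, the meiotic kleisin, had 0.90 without a call, from 1.60 in library 1 and 0.21 in library 2. With the shared size it was called higher from 129 (1.21, adjusted p = 0.046 in limma). Ctcfl, the germline paralogue of Ctcf, and Rad21l had at most 9 reads in a library and were not tested.

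Among 5 tested architectural factors, Ldb1, an adaptor for enhancer looping, was higher from 129 (0.95, SE 0.13, adjusted p = 5.0e-10 in limma). A stretch of 329 bp of Ldb1 overlaps Pprc1 on the opposite strand, which had 5876 and 5360 reads. Chd8, a remodeller known to bind CTCF, was higher from cas (-0.43, adjusted p = 2.7e-06), but not with 1 shared size (-0.10); an antisense gene, Gm26590, covers 26.3% of its span with 29 and 34 reads. Yy1, a zinc finger protein of enhancer-promoter loops, had -0.11 without a call, and 0.22 with a call higher from 129 under the shared size. Zfp143 was listed at 0 in both libraries, and an antisense gene that spans all of it, 1600010M07Rik, had 706 and 1098 reads.

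Levels of different genes were compared per length, as CPM of both alleles per kb of annotated gene span, since nuclear RNA includes introns. Rad21 was highest, at 9.68 in library 1 and 9.81 in library 2, and no other member overlapped it. Wapl (3.78 and 3.50) and Smc1a (3.85 and 3.29) came next and overlapped each other. Nipbl (2.83 and 2.97) and Mau2 (2.95 and 2.82) overlapped, and Ctcf (2.76 and 2.20), Smc3 (2.50 and 2.33) and Pds5b (2.38 and 2.26) all overlapped each other. Stag1 (1.99 and 2.09) lay below Pds5b, and Stag2 was lowest at 0.212 and 0.218. The annotated span of Stag1 begins upstream of the start the table uses. A span from that later start would raise its value, so its place below Pds5b is not firm. Per kb of merged exons, Rad21 (67.5 and 68.4) and Stag2 (3.28 and 3.37) kept the first and last places, but Stag1 moved to the second (61.1 and 64.2) and Mau2 to the ninth (8.61 and 8.23). Allele-assigned reads also depend on how many SNPs a gene holds (not known here), so a low value cannot be told apart from few SNPs. Between the libraries, the level of Ctcf in library 2 was 0.80 times that in library 1 and that of Smc1a 0.85 times, while the other 8 lay between 0.93 and 1.05.

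**Figure D4:**
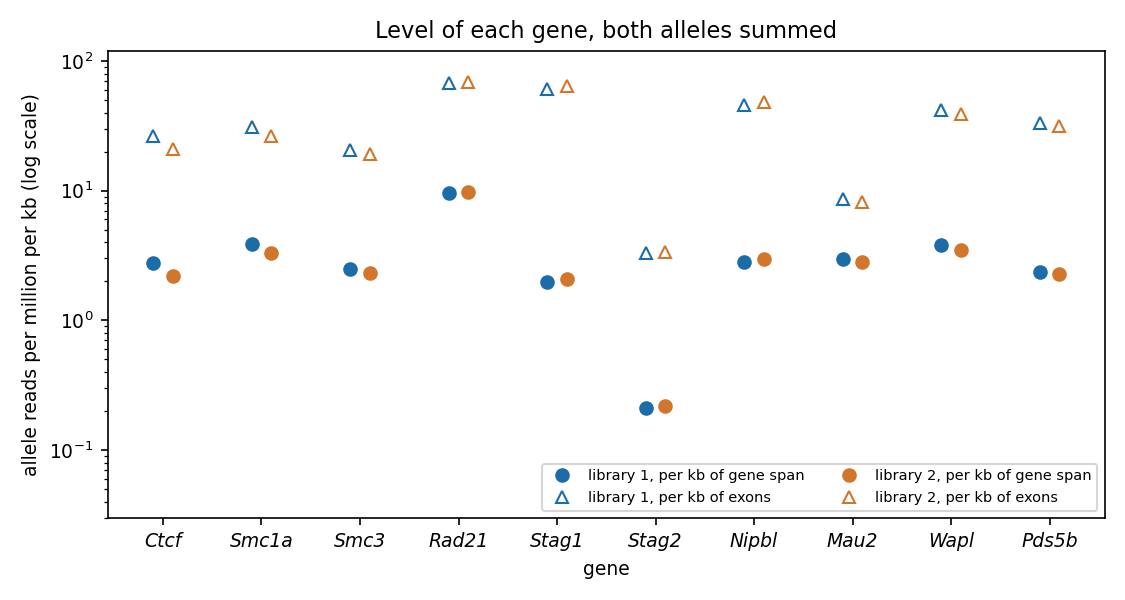
CPM of allele-assigned reads per kb (y axis, log scale) for each gene (x axis), both alleles summed, in library 1 and library 2. Filled circles are per kb of annotated gene span and open triangles per kb of merged exons. Rad21 is highest and Stag2 lowest on both, and Stag1 changes place most.

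Genes with ratios most like those of Ctcf and Wapl were sought among genes whose reads lie within 2-fold of the member's, by the distance between the log2 ratios of both libraries. For Ctcf these were Camk2g, Gnpat and Fkbp5, at distances of 0.0062, 0.010 and 0.013 among 2738 candidates. For Wapl, the called member farthest from 0, they were Lrba, Helz and Eya3, at 0.0078, 0.0088 and 0.014 among 1616. Likeness over 2 libraries is weak: 103 genes lay within 0.1 of Ctcf and 139 within 0.1 of Wapl.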

How the data were processed

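Strand-specific nuclear RNA libraries were read as 100 bp pairs, and earlier reads were merged with new ones, per the labels' protocols. The submitters' processing notes name Bowtie2 and mm10. Not given in the sources used here are the read counter, SNP set, annotation and strand setting. Columns called counts in the file headers were found to hold RPKM, made by the authors from allele-assigned reads: value times length in kb summed to between 999966.7 and 999996.2 in each column and gave whole reads for 100.0% of values (tolerance 0.01 read). Those reads were used, because the deposited lengths did not match the annotated spans (within 2 bp for 67 of 46410 matched rows), which leaves ratios within a gene unaffected.

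limma 3.58.1 in R 4.3.3 was fitted to log2(CPM + 0.1) of the recovered reads with TMM scaling, trended variances and library as a block, requiring 20 or more reads per gene and library. The 1570 rows on Y were left out. A call is a Benjamini-Hochberg adjusted p under 0.05 over all 15509 tested genes. The block was used because 1 RNA sample gave both alleles; across tested genes, the differences between libraries of the 129 and the cas columns correlated at 0.09. On simulated data for 15385 genes 54 of 67 genes made to differ 1.5-fold were called, 57 of 67 at 2-fold and 65 of 66 at 4-fold, with 9 false calls. The simulated dispersion was 0.002, and far fewer genes were made to differ than were called in the data. The largest fold among the members was 1.26 (Wapl), so the simulation does not show how often differences of their size are called. Spans, exons and overlaps came from GENCODE M21 on the same build.

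Members and lists were chosen with earlier results of these data known. All members are named, and from the other lists each called gene and the 4 uncalled ones with the most reads (1 of these is not reported here), with a few further genes chosen after their values were seen. The choice of printed promoters and of neighbouring genes was also made after the values were seen. Alternatives covered the pseudocount, the read minimum, the scaling, the block, the test and the deposited values themselves.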

Additional observations from a re-analysis of the deposited data

How the results depend on the processing

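The 10 ratios kept their direction and call with pseudocounts of 0.5 and 1 CPM, without a read minimum, with a minimum of 100 reads, and with median-of-ratios size factors. With either library left out, which leaves a value and no test, 9 of 10 ratios had the same sign and Stag2, not called, did not. With 1 shared library size the values of Ctcf (0.07), Rad21 (0.11), Smc1a (0.19), Smc3 (0.21), Nipbl (0.04), Mau2 (0.23) and Pds5b (0.16), with the uncalled Stag2 (0.29), turned positive. That of Wapl came to -0.01 without a call. On that scale 5 members were higher from 129 and 0 from cas, against 41.9% and 9.62% of all tested genes. With the deposited column totals 3 were called, 1 higher from 129 and 2 from cas, against 27.0% and 16.6% of all tested genes. Ctcf (-0.15), Rad21 (-0.12) and Pds5b (-0.06) lost their calls there. With no replicate block the values stayed at -0.25 for Ctcf, -0.22 for Rad21, 0.16 for Stag1, -0.29 for Nipbl, -0.34 for Wapl and -0.16 for Pds5b, but 0 members were called, 0 in each direction, and 3907 of all tested genes in place of 6771. The deposited RPKM carry the column-total scaling and were given no further one. With their log2 plus 0.1, Ctcf (-0.15), Rad21 (-0.12), Stag1 (0.26), Nipbl (-0.19), Wapl (-0.23) and Pds5b (-0.06) lost their calls. In that fit 0 members were called and 2762 genes in all, 64.4% of them higher from 129. Exact binomial tests against the typical share, 1 per library and covering counting error only, added Smc1a (-0.14). Why the deposited RPKM and the unblocked fit call fewer genes was not tested. Counts of calls were not recomputed with 1 library, which leaves no residual degrees of freedom. Depth limits Stag2 most, whose interval spans fold changes from 0.80 to 1.20.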

Other observations

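Rows at 0 were frequent among genes that lie wholly inside another gene. Of 749 protein-coding rows wholly inside a gene of the opposite strand, 723 (96.5%) were listed at 0 in all 4 columns, as were 347 of 352 (98.6%) inside a gene of the same strand only, against 3186 of 20122 (15.8%) of the others. Zfp143, the CTCF-associated factor of the architectural list, is in the first group, and Xist, a non-coding gene and so not counted here, lies wholly inside Tsix in the same way. No member lies wholly inside another gene. How reads shared by genes were counted is not known here, and a 0 in this table is not evidence that a gene was silent.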
